A study of Homo sapiens with 2 samples.

Results

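The genes examined here make, attach and trim the glycosylphosphatidylinositol (GPI) anchor, the glycolipid that holds CD55 and CD59 on the cell surface. They were the 31 genes of a fixed list of PIG, DPM and PGAP genes with GPAA1, MPPE1, GPLD1 and CWH43, matched by symbol, and all 31 had a row among the 37122 rows of the RNA-seq count table. The rule used gene names and known function, not measured values. Ramos is a human Burkitt's lymphoma (BL) cell line of B-cell origin, and Ramos640 is its derivative, resistant to complement-dependent cytotoxicity (CDC) mediated by the anti-CD20 antibody rituximab. The resistant cells were kept under selection every 21 days with rituximab, at 640 mg/mL in the sample labels but in μg/mL in the study's methods, and 20% normal human serum as the source of complement. Total RNA of 3 passages was pooled within each cell line, both grown in the same medium with fetal bovine serum, so there was 1 library per cell line. No difference below has a replicate check, the cell line and its single library cannot be told apart, and less RNA per cell cannot be told apart from fewer cells that carry it.

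The GPI anchor is built on phosphatidylinositol in the membrane of the endoplasmic reticulum, sugar by sugar. The finished lipid is then exchanged for the carboxy-terminal signal of a protein and is remodelled on its way through the Golgi. Blood cells that lose the X-linked gene PIGA lack GPI-anchored proteins, among them CD55 and CD59, which restrain complement, and are lysed by it in paroxysmal nocturnal hemoglobinuria.

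The libraries held 38030090 reads for Ramos and 30871826 for Ramos640. A count of 0 therefore allows up to 3 reads, or 0.0789 and 0.0972 CPM (counts scaled to the total of the library), as counting error alone. Of the 9 B-cell markers examined, all were read in both libraries, from 1904 to 96811 reads, among them CD79B with 69495 and 82890 reads. MS4A1, which encodes CD20, had 9654 reads in Ramos and 1904 in Ramos640. PAX5 (4624 and 2039 reads) and MME (12005 and 4880 reads) were also over 1.5-fold lower in Ramos640, and CD79B and IGHM (74596 and 96811 reads) over 1.5-fold higher. The markers of T cells, monocytes and epithelium each had at most 31 reads, which were those of CD3E in Ramos640.

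The GPI anchor genes did not move as a block between the libraries. Of the 31 genes, 30 had at least 10 reads in both libraries together, and the median of their log2 fold changes, Ramos640 over Ramos, was 0.14 (quartiles -0.22 and 0.52), against -0.015 for all 18778 rows with that many reads. Fold changes were taken on counts divided by median-of-ratios size factors, with 1 added, and the log2 ratios given for single genes are these log2 fold changes. Of the 30 genes, 7 (23.3%) were over 1.5-fold higher in the Ramos640 library, compared with 14.6% of all rows, and 2 (6.67%) were over 1.5-fold lower, compared with 17.3%. Among rows with at least 100 reads, 5 of 27 members (18.5%) were over 1.5-fold higher and 2 (7.41%) lower, against 9.94% and 12.6% of all such rows. The 95% counting interval of the fold change covers counting error only. It lay above 0 for 14 genes (46.7%) and below 0 for 11 (36.7%), against 29.6% and 31.6% of all rows. An interval narrows with depth, and with at least 100 reads it lay above 0 for 12 of 27 members and below 0 for 11. That compares with 4772 and 5082 of 13677 rows. Scaled to total counts, with at least 10 reads, the interval lay above 0 for 10 genes, without PIGS, PIGU, PIGM and MPPE1. The summed counts of all members were close, with 618.6 CPM in Ramos and 627.0 CPM in Ramos640.

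**Figure D1:**
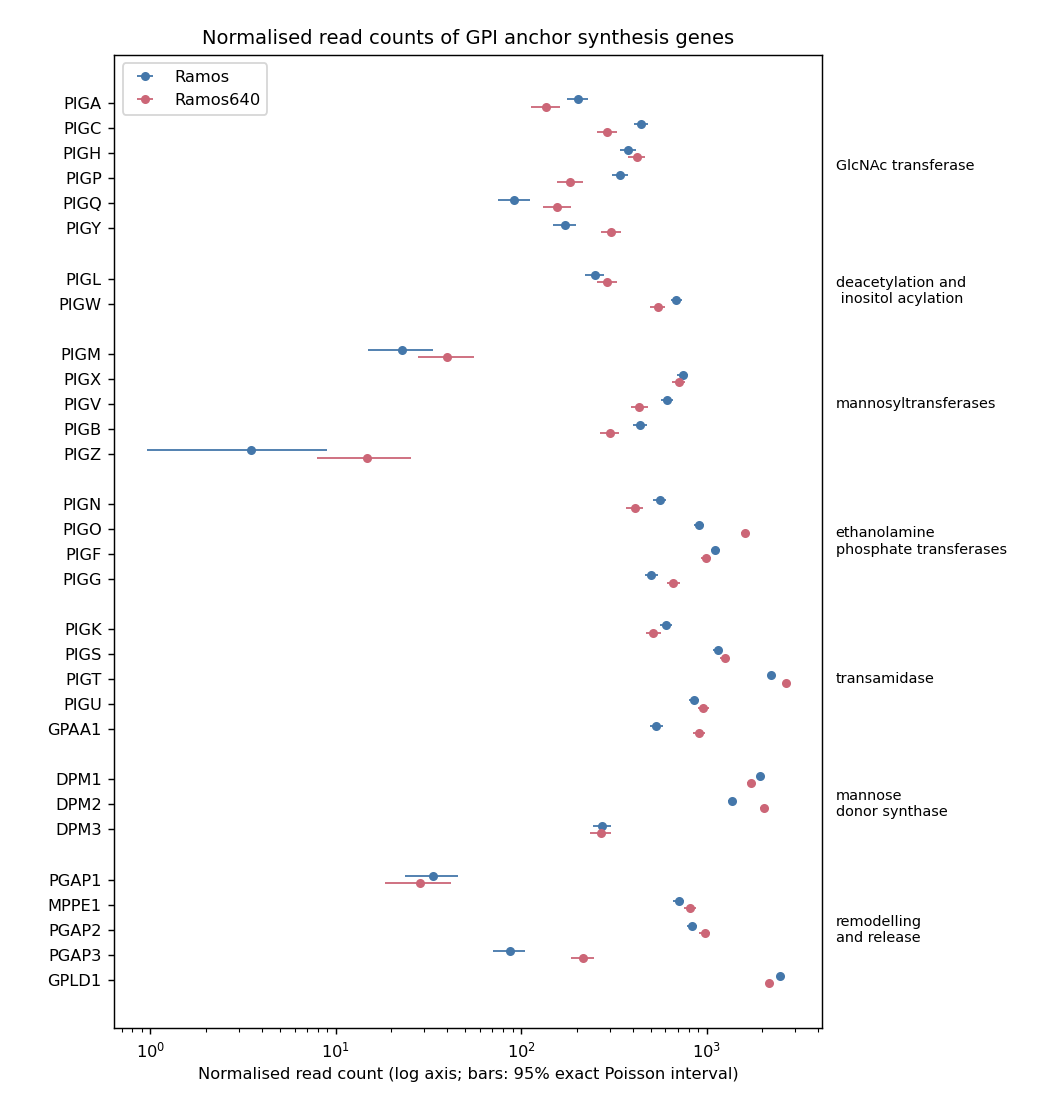
Normalised read count (log axis) of the 30 members with at least 10 reads in the Ramos (blue) and Ramos640 (red) libraries, grouped by step, with 95% exact Poisson intervals for counting error. The counts run from 4 reads for PIGZ in Ramos to 2852 reads for GPLD1 in Ramos before normalization, and PIGP, PIGO and PGAP3 show clear gaps between the libraries.

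**Figure D2:**
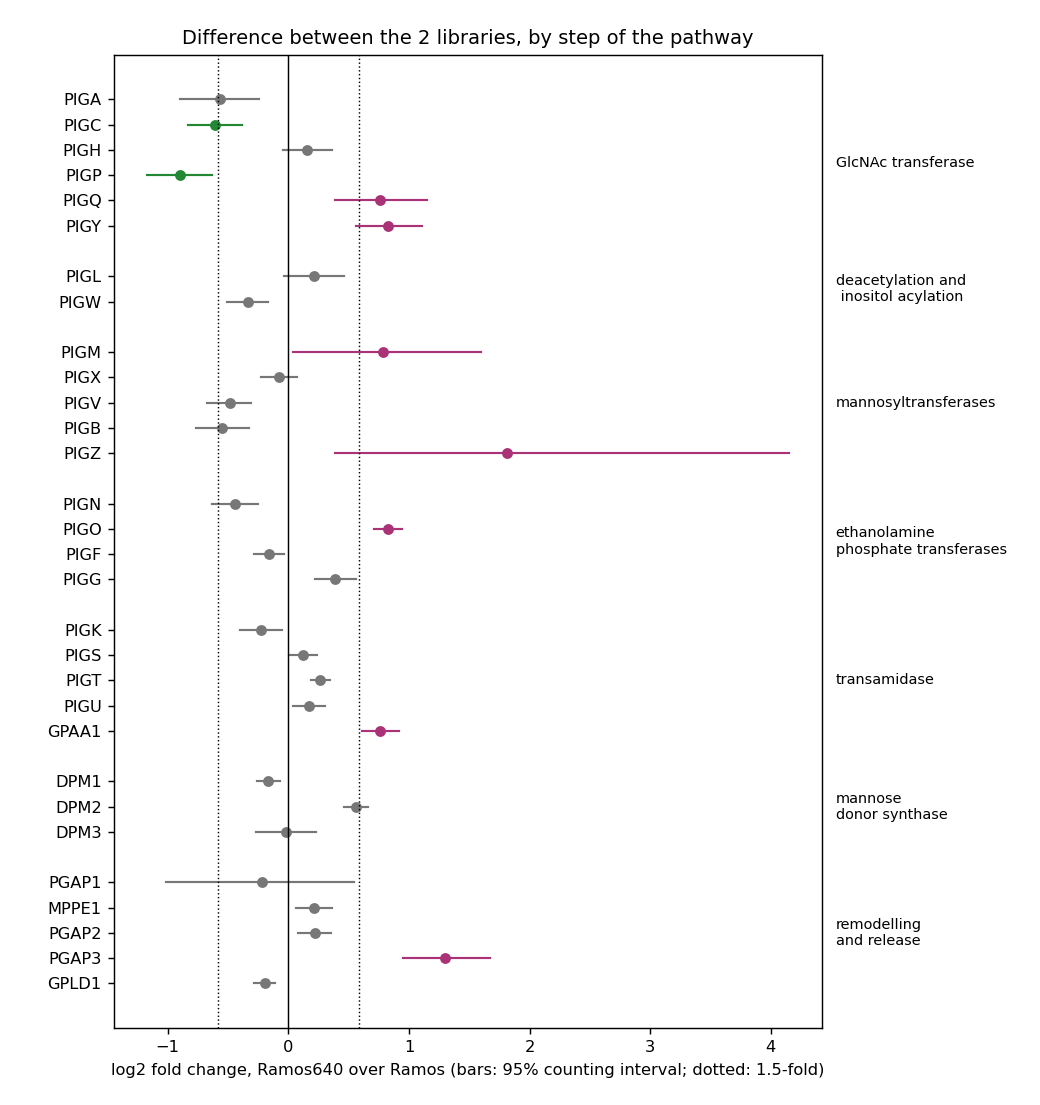
Log2 fold change of Ramos640 over Ramos for the same 30 genes, with 95% counting intervals and dotted lines at 1.5-fold. The 7 genes past 1.5-fold upward (purple) belong to 5 of the 7 steps, and the 2 past it downward (green), PIGC and PIGP, are both subunits of the GlcNAc transferase.

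The first enzyme of the pathway, the complex that puts N-acetylglucosamine (GlcNAc) on phosphatidylinositol, held genes on both sides. PIGP, a small subunit, had 392 reads in Ramos and 161 in Ramos640 (ratio -0.90 on the log2 scale, interval from -1.18 to -0.63). PIGC, another subunit, had 508 and 256 reads (-0.61, interval from -0.83 to -0.39). PIGA, the catalytic subunit, was lower by nearly as much, with 230 and 119 reads (-0.57, interval from -0.90 to -0.24). These 3 counts were all lower in the Ramos640 library.

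The subunits PIGQ and PIGY were on the other side. PIGQ had 105 reads in Ramos and 137 in Ramos640 (ratio 0.76 on the log2 scale, interval from 0.39 to 1.15). PIGY had 196 and 268 reads (0.83, interval from 0.56 to 1.11). PIGH, which binds PIGA, had 430 and 368 reads, and its interval from -0.048 to 0.36 included 0, so no difference was detectable at this depth.

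Because the subunits are compared within a library, their ratio does not depend on how the libraries were scaled. The reads of PIGA, PIGC and PIGP together were 3.75 times those of PIGQ and PIGY in Ramos (95% interval from 3.30 to 4.28) and 1.32 times in Ramos640 (from 1.16 to 1.51). These pairs of groups were formed after the values were seen, so the ratio is a description. It is not corrected for transcript GC content, which was 66.5% for PIGQ and from 39.4% to 45.4% for the other genes in it. Per length of exon and depth of library (RPKM), PIGY had a level of 3.93 in Ramos and 6.62 in Ramos640, and PIGA a level of 0.961 and 0.612. PIGQ was the lowest subunit on this scale, at 0.351 and 0.565, and with the length of the longest transcript PIGA was the lowest in Ramos640.

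PIGP lies on chromosome 21 of GRCh37 from 38435146 to 38445470, PIGC on chromosome 1 from 172339329 to 172413226, and PIGQ on chromosome 16 from 616995 to 634109. PIGY, on chromosome 4 from 89442149 to 89444927, has the same span and strand as PYURF in the annotation. No row is named PYURF, so reads of either gene could stand under PIGY. PIGC has a pseudogene, PIGCP1, with 87 and 66 reads, and PIGA has PIGAP1 with 18 and 2 reads, so reads of these genes may have been split.

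RefSeq promoters were at hand for 26 of the 31 genes. The 250 bases before the start are shown for PIGC and PIGP, the 2 members past 1.5-fold downward, and for PIGQ and PGAP3, which were past it upward. The sequences are RefSeq's (GRCh38.p14), and each matched GRCh37 exactly once, at the GRCh37 position given, and the RefSeq starts of these 4 genes lie inside the GENCODE spans above or given with the gene. They run 5′ to 3′ on the strand of the gene, with capitals for motifs found on either strand, namely the GC box GGGCGG, the ETS factor motif CCGGAAG and the YY1 core AAGATGG.
PIGC (chr1:172413210-172413459, minus strand): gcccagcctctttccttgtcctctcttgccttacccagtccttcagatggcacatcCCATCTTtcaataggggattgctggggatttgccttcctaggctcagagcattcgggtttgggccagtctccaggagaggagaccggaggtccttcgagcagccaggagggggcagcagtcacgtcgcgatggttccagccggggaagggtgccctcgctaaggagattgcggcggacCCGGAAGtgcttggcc
PIGP (chr21:38445104-38445353, minus strand): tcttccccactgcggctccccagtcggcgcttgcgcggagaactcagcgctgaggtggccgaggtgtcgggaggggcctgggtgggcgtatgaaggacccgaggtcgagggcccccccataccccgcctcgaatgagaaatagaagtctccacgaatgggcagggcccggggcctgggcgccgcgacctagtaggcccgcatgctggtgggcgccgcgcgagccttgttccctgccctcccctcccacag
PIGQ (chr16:619718-619967, plus strand): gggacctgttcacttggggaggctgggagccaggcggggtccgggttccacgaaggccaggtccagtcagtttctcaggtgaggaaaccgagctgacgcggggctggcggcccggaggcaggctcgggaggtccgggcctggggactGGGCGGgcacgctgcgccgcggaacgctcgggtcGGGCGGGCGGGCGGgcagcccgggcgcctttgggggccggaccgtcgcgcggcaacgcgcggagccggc
PGAP3 (chr17:37844311-37844560, minus strand): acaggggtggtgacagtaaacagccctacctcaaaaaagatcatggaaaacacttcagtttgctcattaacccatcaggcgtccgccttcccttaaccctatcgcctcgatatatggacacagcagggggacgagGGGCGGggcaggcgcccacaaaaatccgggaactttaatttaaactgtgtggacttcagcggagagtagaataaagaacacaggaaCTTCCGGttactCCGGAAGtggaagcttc

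In these windows PIGQ held 4 GC boxes, 3 of them overlapping, PGAP3 held 1 GC box and 2 ETS motifs, PIGC held 1 ETS motif and 1 YY1 core, and PIGP held none of the motifs searched. The 26 promoters were rich in G and C, with a median of 63.6% against 58.0% over all 27305 promoters of the same length, and a median of 20.5 CpG dinucleotides against 11. The ETS motif was in 7 of the 26 (26.9%), in the genes PIGC, PIGL, PIGB, DPM1, DPM2, DPM3 and PGAP3, and in 8.82% of all promoters. All 3 genes of dolichol phosphate mannose synthase were therefore among the 7. The GC box was in 13 of the 26 (50.0%) and in 42.3% of all promoters, the CCAAT box (CCAAT) in 8 (30.8%) and in 33.0%, and the YY1 core in 2 (7.69%) and in 3.77%. The TATA box TATAAA was in 1 promoter, that of DPM1 (3.85% against 11.1%), and the cyclic AMP response element TGACGTCA in 1, that of PGAP2 (3.85% against 1.77%). No member held the E-box CACGTG, the NRF1 core CGCATGCG or the ER stress element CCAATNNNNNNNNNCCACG, the last of which would contain a CCAAT box. These are in 6.49%, 1.86% and 0.0806% of all promoters. The shares over all promoters were not matched to the members for GC or CpG content. A match of letters is not a binding site, and promoters with the ETS motif belonged to members on both sides of 0.

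The next enzymes differed little or were lower. PIGL, which removes the acetyl group from GlcNAc, had 285 reads in Ramos and 254 in Ramos640, and its interval from -0.035 to 0.46 included 0. PIGL shares 5.21% of its exon bases with NCOR1 (2440 and 1880 reads) and 4.19% with CENPV (562 and 515 reads), both on the opposite strand. PIGW, which adds an acyl chain to inositol, had 785 and 477 reads (ratio -0.34 on the log2 scale, interval from -0.50 to -0.17). Its neighbour MYO19 on the opposite strand, which shares 21.7% of the exon bases of PIGW, had 3932 and 4119 reads (0.45), and the use of strand in counting is not given in the sources used here.

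Among the mannosyltransferases, PIGV and PIGB were lower in the Ramos640 library, and PIGM and PIGZ had few reads in either. PIGV, which adds the second mannose, had 696 reads in Ramos and 381 in Ramos640 (ratio -0.49 on the log2 scale, interval from -0.67 to -0.31). PIGB, which adds the third, had normalised read counts of 439.0 and 300.1 (-0.55, interval from -0.77 to -0.33). Neither was past 1.5-fold. Scaled to total counts, PIGB (-0.63) and PIGA (-0.65) were past it, but with the running median of fold changes along transcript GC content (the GC trend) removed PIGB was at -0.18, with an interval that included 0, and PIGV at -0.51. PIGB shares 9.75% of its exon bases with CCPG1 (308 and 203 reads) and 3.39% with RAB27A (637 and 351 reads), both on the opposite strand.

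PIGM, the enzyme for the first mannose, had few reads, with 26 and 35, and a log2 fold change of 0.78 whose interval from 0.036 to 1.60 nearly reached 0. PIGX, the partner that stabilizes PIGM, had 850 and 619 reads, and its interval from -0.23 to 0.075 included 0. The level of PIGX per length was far above that of PIGM, at 5.05 against 0.0971 RPKM in Ramos and 4.53 against 0.161 RPKM in Ramos640. PIGZ, which adds an optional further mannose, had 4 reads in Ramos and 13 in Ramos640, and it passed the minimum of 10 reads mainly through Ramos640. Its log2 fold change of 1.81 had an interval from 0.39 to 4.16.

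Among the ethanolamine phosphate transferases, PIGO was higher and PIGN lower in the Ramos640 library. PIGO, which modifies the third mannose at the point where the protein is later joined, had 1039 reads in Ramos and 1415 in Ramos640 (ratio 0.83 on the log2 scale, interval from 0.71 to 0.94). It lies on chromosome 9 from 35087234 to 35096616. PIGN, which modifies the first mannose, had 637 and 360 reads (-0.44, interval from -0.63 to -0.25). With the GC trend removed PIGN was at -0.135 and its interval included 0, while PIGO was at 0.68.

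PIGG and PIGF, the other genes of this step, were between these. PIGG, which modifies the second mannose, had 576 and 580 reads (0.39, interval from 0.22 to 0.56). PIGF, the shared partner of PIGO and PIGG, had 1269 and 871 reads (-0.16, interval from -0.29 to -0.036), and with the GC trend removed it was at 0.060. Its exons overlap those of RHOQ (2693 and 1692 reads, -0.29) and CRIPT (1046 and 614 reads, -0.39) on the opposite strand. The reads of PIGO were 0.819 times those of PIGF in Ramos (interval from 0.754 to 0.889). In Ramos640 they were 1.63 times (from 1.49 to 1.77). This ratio does not depend on the scaling of the libraries, but it is not corrected for the GC trend. The transcripts of PIGO and PIGF had 54.2% and 40.7% GC.

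The transamidase, which cuts the carboxy-terminal signal and joins the anchor to the protein, had 4 of its 5 genes higher in the Ramos640 library under every scaling. GPAA1 differed most, with 612 reads in Ramos and 798 in Ramos640 (ratio 0.76 on the log2 scale, interval from 0.61 to 0.92). PIGT had 2552 and 2357 reads (0.27, interval from 0.19 to 0.35), more reads than any other subunit. PIGU had 975 and 842 reads (0.17) and PIGS had 1312 and 1097 reads (0.12). These 2 differences were small, with intervals that began at 0.035 and 0.0059 and that included 0 once the GC trend was removed. PIGU shares 3.55% of its exon bases with NCOA6 on the same strand, which had 1449 and 1466 reads (0.40). What part of the PIGU reads came from this stretch was not tested.

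PIGK, the catalytic subunit of the transamidase, was on the lower side with 688 and 452 reads (-0.22, interval from -0.40 to -0.052). With the GC trend removed it was at 0.14, with an interval from -0.036 to 0.31. The reads of GPAA1 were 0.89 times those of PIGK in Ramos (interval from 0.796 to 0.993). In Ramos640 they were 1.77 times (from 1.57 to 1.99). This pair was chosen after the values were seen, and its ratio is not corrected for the GC trend. The transcripts of GPAA1 and PIGK had 63.4% and 34.9% GC, and with the trend removed GPAA1 was at 0.55. With the length of all exons, the 5 subunits were within 2.89 times of each other in Ramos and 3.80 times in Ramos640. PIGU was the highest at 9.47 and 10.1 RPKM, and PIGK the lowest at 3.28 and 2.66 RPKM. With the length of the longest transcript these 2 were again highest and lowest, 3.98 and 5.23 times apart.

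Dolichol phosphate mannose synthase supplies the mannose for the anchor and for N-glycans, and its subunit DPM2 had the highest level per length of all members in both libraries. DPM2, which stabilizes the enzyme and also binds the GlcNAc transferase, had 1575 reads in Ramos and 1784 in Ramos640 (ratio 0.56 on the log2 scale, interval from 0.46 to 0.66), just under 1.5-fold. DPM1, the catalytic subunit, had 2219 and 1519 reads (-0.17, interval from -0.26 to -0.071). After removal of the GC trend DPM1 was at 0.16 (interval from 0.060 to 0.25), so its direction rested on the processing. DPM3, which tethers DPM1 to the membrane, had 312 and 236 reads, and its interval from -0.27 to 0.23 included 0.

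The order of levels at this step was DPM2 above DPM3 above DPM1 with the length of all exons. DPM2 had 16.6 and 23.1 RPKM, DPM3 had 13.2 and 12.3 RPKM, and DPM1 had 6.29 and 5.30 RPKM. With the length of the longest transcript, DPM1 was instead above DPM3, at 19.4 and 16.4 RPKM against 15.9 and 14.8 RPKM.

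**Figure D3:**
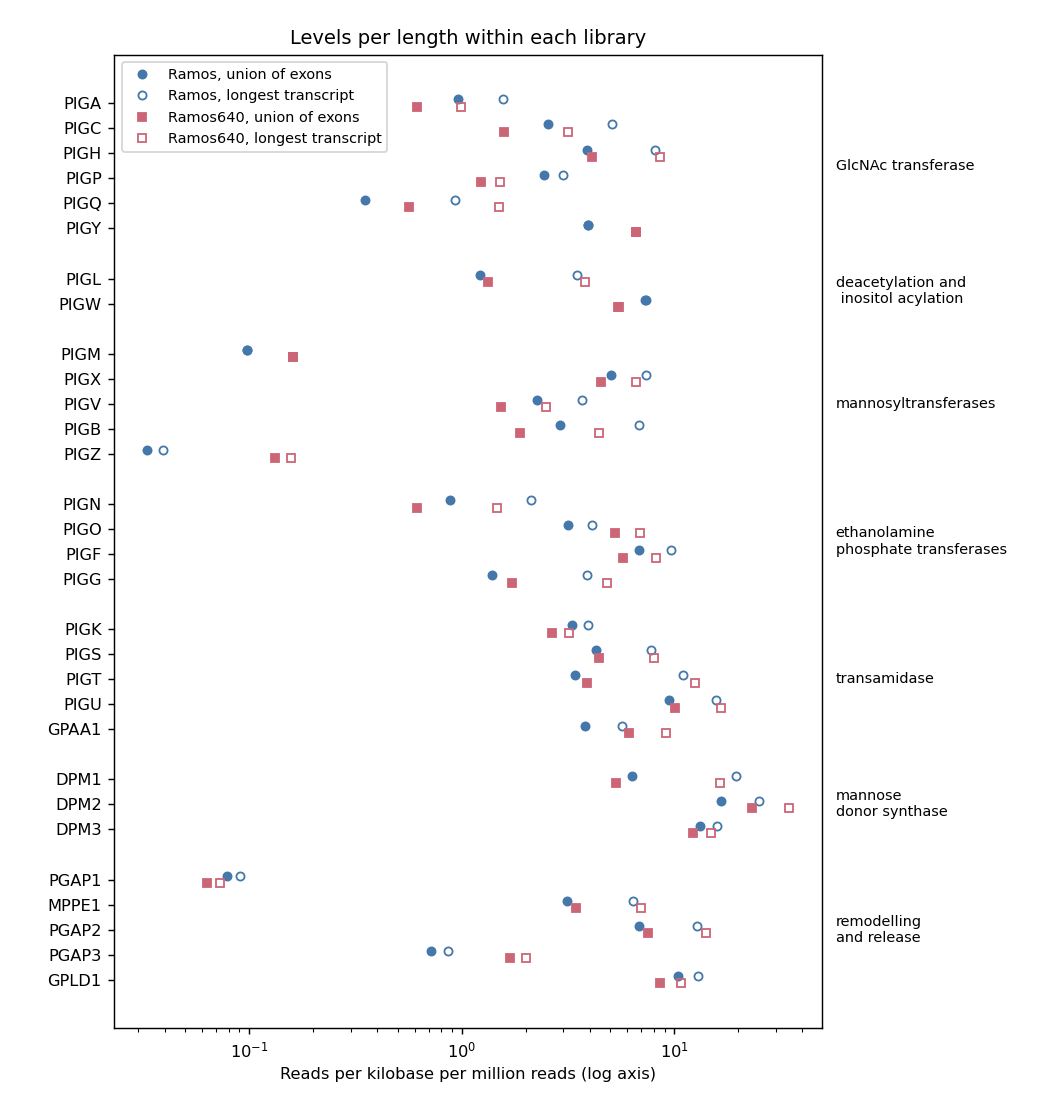
Level per length in RPKM (log axis) of the 30 members in the Ramos (blue circles) and Ramos640 (red squares) libraries, with the length of all exons (filled) or of the longest transcript (open). DPM2 was highest in both libraries by either length, and PIGM, PIGZ and PGAP1 were the lowest with reads, from 0.0329 to 0.161 RPKM by the length of all exons.

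In the remodelling steps, PGAP3 had the largest difference among members with at least 100 reads. PGAP3, which acts in the Golgi on the fatty acids of the anchor, had 99 reads in Ramos and 188 in Ramos640 (ratio 1.30 on the log2 scale, interval from 0.95 to 1.67), or 2.46-fold. It lies on chromosome 17 from 37827375 to 37853050 and shares 3.98% of its exon bases with ERBB2 on the opposite strand, which had 111 and 80 reads. PGAP2, which completes the exchange of fatty acids that PGAP3 begins, had 957 and 855 reads (0.22, interval from 0.084 to 0.35), and with the GC trend removed it was at 0.076 with an interval that included 0. MPPE1, also called PGAP5, which removes an ethanolamine phosphate side group, had 806 and 718 reads (0.21), but 33.4% of its exon bases are shared with GNAL on the opposite strand, which had 510 and 356 reads.

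PGAP1, which removes the acyl chain from inositol, was nearly silent, with 38 and 25 reads and an interval from -1.01 to 0.54. CWH43, linked to lipid remodelling of the anchor, had no reads in either library, which allows up to the 3 reads given above. GPLD1, a phospholipase D that releases proteins from their anchor, had 2852 reads in Ramos and 1910 in Ramos640, the most of any member in Ramos (-0.20, interval from -0.28 to -0.11). Its exons overlap those of ALDH5A1, with 20191 and 11768 reads (-0.40), and MRS2, with 1310 and 725 reads (-0.47), both on the opposite strand. The shared stretches were 3.31% and 10.8% of the exon bases of GPLD1, and what part of its reads came from them was not tested.

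The fold changes of the members went with the GC content of their transcripts. Across the 30 members Spearman's rho between the 2 was 0.607, and it was 0.419 for the 10280 genes that code for proteins and had 100 reads or more. These points are genes of the same pair of libraries, not independent replicates. The 7 members past 1.5-fold upward had a median GC content of 60.1%, which was that of PIGZ with its 4 and 13 reads. PIGQ had 66.5%, GPAA1 63.4%, PGAP3 60.3% and PIGO 54.2%, but PIGY had 44.5% and PIGM 39.9%. The median of the 30 members was 45.2%, and PIGC and PIGP had 45.4% and 41.9%. With the running median over GC content removed, PIGP was at -0.71, PIGY at 0.93, PIGO at 0.68, PGAP3 at 1.11, PIGM at 1.03 and PIGZ at 1.62, all still past 1.5-fold. On the log2 scale 1.5-fold is 0.585, and PIGQ, at 0.588, was barely past it. GPAA1 (0.55) and PIGC (-0.55) came to lie just within 1.5-fold, and PIGA was at -0.30 with an interval that included 0.

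**Figure D4:**
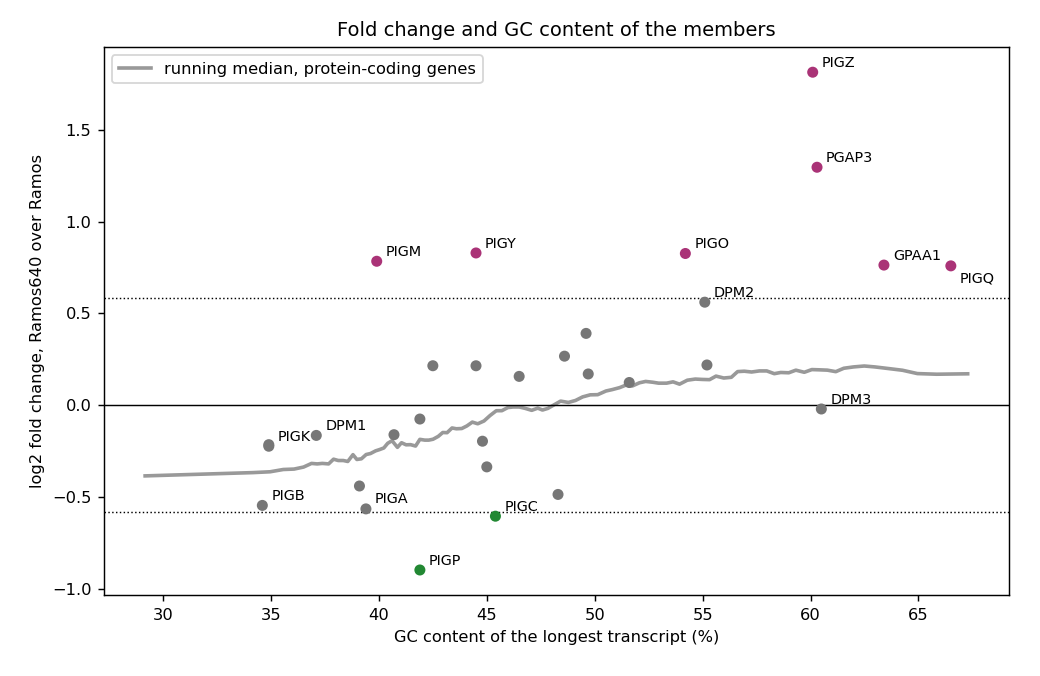
Log2 fold change of Ramos640 over Ramos against the GC content of the longest transcript (%) for the 30 members, with the running median over protein-coding genes in grey and dotted lines at 1.5-fold. PIGY and PIGM stand far above the grey line at 44.5% and 39.9% GC, and PIGP far below it at 41.9%.

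The genes that supply the pathway with substrates were on the higher side of 0 in 14 of 20 cases, against 9162 of 18778 rows. Of 21 genes for UDP-GlcNAc, GDP-mannose, dolichol, phosphatidylinositol and ethanolamine, 20 had at least 10 reads, with a median log2 fold change of 0.18. All 20 also had at least 100 reads, and 2 were over 1.5-fold higher and none lower. Of all rows with at least 100 reads, 9.94% were higher and 12.6% lower, and of those with at least 10 reads 14.6% and 17.3%. With total counts the median was 0.10. All 5 dolichol genes had intervals above 0, as did 29.6% of all rows, with a median of 0.48. The interval of NUS1 began at 0.076, and with total counts, which shifted the median of all rows by -0.08, it included 0. SRD5A3, the polyprenol reductase, had 116 reads in Ramos and 202 in Ramos640 (1.17, interval from 0.84 to 1.52), and MPDU1, needed for the use of dolichol-linked mannose, had 816 and 1096 reads (0.81, interval from 0.67 to 0.94). The 5 GDP-mannose genes also had intervals above 0, with a median of 0.23, but that of GMPPB began at 0.038. With total counts the interval of GMPPB included 0. With the GC trend removed GMPPB was at -0.0031 and PMM1 at 0.048, with intervals that included 0. The phosphatidylinositol and ethanolamine genes were not on the higher side as a group, with a median of -0.064 over 6 genes.

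N-glycan assembly, which draws on the same dolichol donors in the same membrane, had a similar median. Of its 27 genes, 26 had at least 10 reads, with a median log2 fold change of 0.18. All 26 also had at least 100 reads, and 3 were over 1.5-fold higher and 1 lower. Of all rows with at least 100 reads, 9.94% were higher and 12.6% lower, and of those with at least 10 reads 14.6% and 17.3%. With total counts the median was 0.097. ALG9 had 585 and 763 reads (0.76), RPN1 had 14167 and 17255 reads (0.67) and ALG5 had 811 and 962 reads (0.63), while ALG10 had 274 and 133 reads (-0.66). Of 10 further GPI pathway genes with a row, such as the TMED cargo receptors for anchored proteins, 9 had at least 10 reads, with a median of 0.14 and none past 1.5-fold in either direction. With 1 library per cell line, no difference between these lists and the members could be tested.

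**Figure D5:**
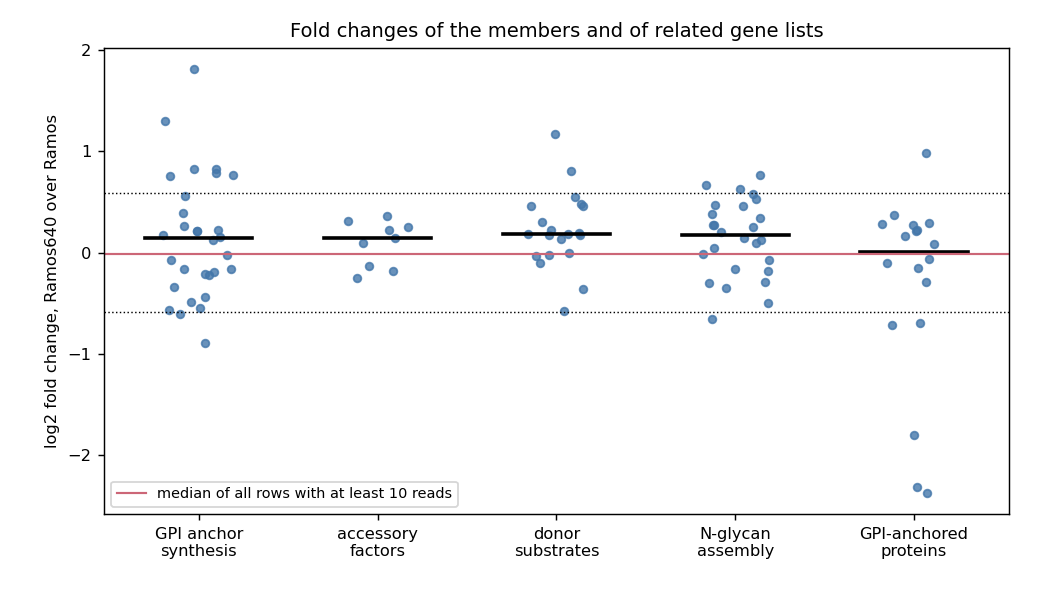
Log2 fold changes of Ramos640 over Ramos for genes with at least 10 reads in 5 lists, each point a gene and each black bar the median of its list, with the median of all rows in red and dotted lines at 1.5-fold. The medians of the first 4 lists lie between 0.14 and 0.18, and the 3 lowest points, of GPI-anchored protein genes, are RECK, SEMA7A and BST1, the last 2 with under 100 reads.

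The genes of the proteins that carry the anchor showed no common direction. Of 39 such genes with a row, 18 had at least 10 reads, with a median log2 fold change of 0.0092, 1 over 1.5-fold higher and 5 lower, against 14.6% and 17.3% of all rows. The median was negative with TMM factors (-0.00056), with total counts (-0.071) and with a minimum of 1 read (-0.082). It was positive with the other alternatives, at 0.047 with the GC trend removed and 0.12 with a minimum of 100 reads. With that minimum the median of the GPI anchor genes was also 0.12. The 5 with the most reads were CD52 (8354 and 7868 reads, 0.29), CD48 (6933 and 6219 reads, 0.22), BST2 (2541 and 2184 reads, 0.16), CD59, described next, and MELTF (751 and 611 reads, 0.083). Lower in Ramos640 were FOLR2, a folate receptor, with 618 and 288 reads (-0.72), and RECK, a protease inhibitor, with 144 and 31 reads (-1.81). The other 3 past 1.5-fold downward, BST1, PRNP and SEMA7A, and THY1 past it upward each had under 100 reads.

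Of the complement regulators, CD59 had 1437 reads in Ramos and 1427 in Ramos640 (ratio 0.37 on the log2 scale, interval from 0.26 to 0.48), and CD55 had 564 and 414 reads (-0.065), with an interval from -0.25 to 0.12 that included 0. CD46, which spans the membrane and needs no GPI anchor, had 2915 and 1554 reads (-0.53, interval from -0.62 to -0.44). With the GC trend removed CD46 was at -0.21, CD59 at 0.43, and CD55 on the other side of 0 at 0.16.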

How the data were processed

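RNA was sequenced from 1 library of Ramos and 1 of Ramos640. Per the study's methods, the authors removed adaptors and aligned the reads to GRCh37 with MapSplice. The deposited table holds whole-number, unnormalized read counts per gene symbol. The counting program, its annotation, the use of strand and the treatment of reads with several positions are not given in the sources used here. The 2 deposited count columns were used as they stand. Of the 37122 rows, 28 bore dates in place of symbols and matched no gene.

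Each library was scaled by its median-of-ratios size factor (1.14 for Ramos and 0.876 for Ramos640), and log2 fold changes were taken after adding 1. Rows with at least 10 reads over both libraries were kept. With 1 library per cell line no test across genes was made, and "called" means past 1.5-fold. Intervals at 95% (exact Poisson for a count, Clopper-Pearson for a ratio of reads) cover counting error only. Lengths, GC content and positions came from GENCODE v44 lifted to GRCh37, which matched 84.4% of the rows kept. For the GC alternative, a running median of fold changes along GC content, made from the 10280 genes that code for proteins and had 100 reads or more, was subtracted. The members and lists follow gene function, but they were chosen with earlier results of these data known, though not results of these genes. All 31 members were accounted for, and of other genes those past 1.5-fold with at least 100 reads, the complement regulators and the 5 GPI-anchored protein genes with most reads were named. The read ratios were chosen after the values were seen. Alternatives were edgeR's TMM factors, total counts, factors from rows with at least 100 reads, minimums of 1 and 100 reads, pseudocounts of 0.1 and 10, removal of the GC trend, and omission of the 12 members whose reads may be shared. These 12 were PIGA, PIGC, PIGL, PIGW, PIGB, PIGF, PIGU, DPM1, MPPE1, PGAP2, PGAP3 and GPLD1. The code was tested on simulated data. R 4.3.3 with edgeR 4.0.16 and Python 3.11.15 with scipy 1.17.1 were used.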

Additional observations from a re-analysis of the deposited data

How the results depend on the processing

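Of the counts of members, 2 moved by over 1.5 times, the number over 1.5-fold lower in Ramos640 and the number with an interval below 0. The first was 2 as reported, 4 with total counts, 1 with the GC trend removed and 1 without the members whose reads may be shared. The second was 11 as reported, 5 with the GC trend removed and 4 without those members, where fewer genes enter by construction. With the GC trend removed, PIGX, PIGF, PIGK, DPM1, PGAP1 and CD55 were on the other side of 0. The number of members over 1.5-fold higher was between 5 and 7, and their median log2 fold change between 0.059 and 0.21, over all alternatives. Total counts shifted the median of all rows by -0.08, and with it the medians of the members (0.059), N-glycan (0.097), donor substrate (0.10) and accessory genes (0.061), which moved by over 1.5 times and stayed above 0. No paired analysis was possible because each cell line had 1 library. Members with few reads, such as PIGZ, PIGM and PGAP1, could show only large differences at this depth, and the cause of the relation with GC content was not tested.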
